A study of Caenorhabditis elegans with 11 samples.

Results

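The genes described here are 122 Caenorhabditis elegans genes that carry only a sequence name in the deposited tables and that were far more abundant after prp-6 knockdown than after prp-8 knockdown in wild-type larvae. They were taken from the authors' list of genes called higher in the pooled spliceosome knockdowns of N2, the wild-type strain, which holds 287 other genes besides. Of the genes in that list, 241 had no public name in the list, and 168 of these were absent from the corresponding list of the smg-1 mutant. The members, chosen by these FPKM values, are the 122 of the 168 in which the log2 ratio of prp-8 FPKM + 1 to prp-6 FPKM + 1 was at most −1, that is, at least a 2-fold lower level with prp-8. FPKM is the number of mapped fragments scaled to transcript length and library size. All 6 deposited tables together hold 1106 entries for 939 genes.

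RNA of whole worms was sequenced after the worms had eaten bacteria that make double-stranded RNA against prp-8, prp-6, prp-31 or, as the control, gfp, a gene that these worms are not labelled as carrying. There were 11 libraries of 3 strains. N2 and the smg-1(r861) mutant each gave 1 library per clone (prp-8, prp-6, prp-31 and gfp), from larvae started as L1, fed for 24 h at 20 °C and labelled L3. The glp-4(bn2) mutant, grown at 25 °C and given the clones for 48 h after 72 h on OP50 bacteria, is labelled adult although its titles say L3, and gave 1 library each for prp-8, prp-31 and gfp. The values below are those of the 4 N2 libraries unless another strain is named. With 1 library per group no difference has a replicate check, so values and ratios are given and nothing is tested. The membership rule used the prp-8 and prp-6 values, and the authors' list used all 4 N2 libraries, so every N2 value of a member is a description of how it was chosen.

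As background, prp-6, prp-8 and prp-31 encode proteins of the tri-snRNP, the particle that joins the spliceosome before it cuts introns out of a pre-mRNA. PRP-8 sits at the catalytic centre, while PRP-6 and PRP-31 hold the particle's parts together. SMG-1 is a kinase needed for nonsense-mediated decay, which removes transcripts with premature stop codons. C. elegans larvae replace their collagen-rich cuticle at each moult, and many genes of the cuticle and the moult are expressed in pulses timed to that cycle. A gene with only a sequence name is a gene model for which the list gives no public name, and no function is assigned to such genes here.

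Of the knockdown targets only prp-31 is in the N2 list. It had 25.3 FPKM in the library labelled prp-31 RNAi, against 40.6 FPKM with gfp. With prp-8 RNAi it had 144 FPKM and with prp-6 RNAi 133 FPKM. The depletion of prp-8 and prp-6 could therefore not be read from these tables. The labels give a minimum number of reads for each sample and no exact number, so the depth behind each FPKM value is unknown and no counting interval is given. In RNA of whole worms, fewer cells of a type and less RNA per cell cannot be told apart. Of the markers fixed for hypodermis, intestine, muscle, pharynx, neurons and germline, the only entry in the N2 higher list was the hypodermal receptor gene nhr-25, and the other markers have no value in it.

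Among the members the level was highest with prp-6, intermediate with prp-31, and with prp-8 close to the control. The median member had 3.58 FPKM with prp-8, 40.5 with prp-6 and 10.6 with prp-31, against 3.84 with gfp RNAi. On the log2 scale of FPKM + 1 over gfp + 1, which understates the change of low genes, the median fold was −0.01 with prp-8, 2.58 with prp-6 and 0.97 with prp-31. The 287 other genes of the list had medians of 1.40, 1.54 and 0.56 in the same order of clones.

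**Figure D1:**
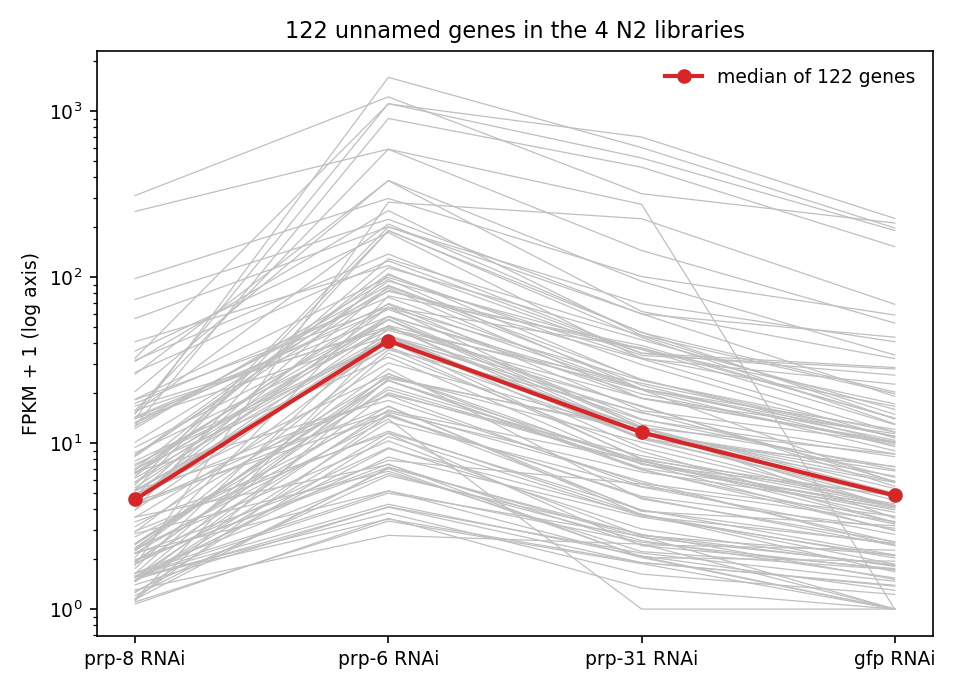
FPKM + 1 on a log axis of the 122 members in the N2 libraries of the prp-8, prp-6, prp-31 and gfp clones, 1 library each, with a grey line per gene and the median in red. The median is 40.5 FPKM with prp-6 RNAi and lies between 3.58 and 10.6 FPKM in the other libraries.

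Every member was highest in the prp-6 library, and all 122 were at least 2-fold above gfp there, against 83.9 percent of the whole list. Of the members, 105 were at least 4-fold above gfp with prp-6, where the share of the list was 50.4 percent. With prp-8, 61 members were below gfp (31.8 percent of the list), 24 were at least 2-fold lower (11.2 percent of the list) and 4 were at least 2-fold higher (42.3 percent of the list). With prp-31, 121 were above gfp (95.4 percent of the list) and 57 at least 2-fold above it (28.9 percent of the list). The last of these counts depends on the pseudocount, and was 25 with 5 FPKM and 83 with 0.1 FPKM in place of 1 FPKM. The remaining member, F15B9.12, was listed at 0 with both prp-31 and gfp. Another 91 genes of the list, with a public name and absent from the smg-1 higher list, also had a prp-8 to prp-6 ratio of at most −1. All 91 were at least 2-fold above gfp with prp-6. With prp-8, 64 of them were below gfp and 19 at least 2-fold lower, and 46 were at least 2-fold above gfp with prp-31. All of these comparisons share the gfp library, and the counts with prp-8 and prp-6 follow in part from the rule.

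**Figure D2:**
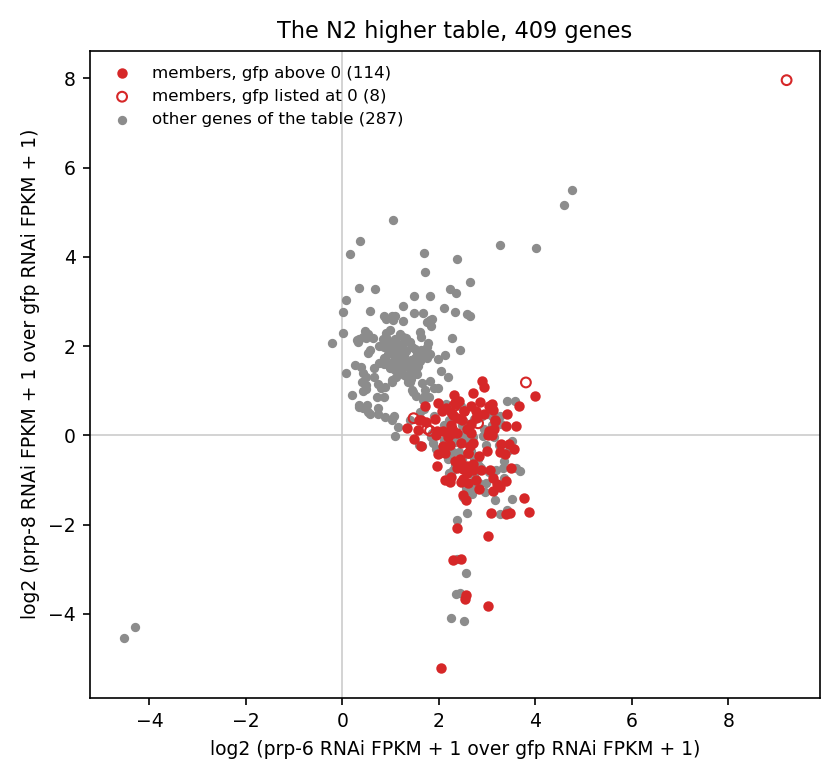
Log2 fold of FPKM + 1 over gfp with prp-6 RNAi (horizontal) and prp-8 RNAi (vertical) for the genes of the N2 higher list, 122 members and 287 others. Members (red) lie to the right with most prp-8 values near or below 0; open circles are the 8 members with gfp listed at 0.

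The order of the clones was the same in most members. In 110 of the 122 the level was prp-6 above prp-31 above prp-8, an order held by 49.9 percent of the list. In 61 members the gfp value lay between prp-31 and prp-8, so that prp-8 was the lowest of the 4 libraries (31.1 percent of the list). The other 12 members were higher with prp-8 than with prp-31, 11 of them by less than 1.5-fold. The exception, F15B9.12, was listed at 0 with prp-31. The rule itself sets prp-6 above prp-8 in every member. Of the 91 genes with a public name under the same ratio, 83 held the order prp-6, prp-31, prp-8. In 63 of the 91 prp-8 was the lowest of the 4 libraries, so neither order was particular to the members.

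The members with the largest prp-6 values relative to gfp included genes with and without a RefSeq symbol. The gene srlf-19 (R11G11.6 in the list, chromosome V, 505522 to 506068) had 5.50 FPKM with prp-8, 54.8 with prp-6 and 11.6 with prp-31, against 2.53 with gfp. On the FPKM + 1 scale, used for all folds here, its prp-6 level was 15.8-fold above gfp, its prp-31 level 3.56-fold and its prp-8 level 1.84-fold. Coordinates are those of the deposited list, whose genome build no source used here names. For 56 members they cover less than 50 percent of the annotated gene. R74.2 (chromosome III, 4188255 to 4189287) had 2.96 FPKM with prp-8, 191 with prp-6 and 42.5 with prp-31, against 12.1 with gfp. It was thus far above the control with prp-6 and below it with prp-8, with log2 folds of 3.87 and −1.72.

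T24F1.7 (chromosome II, 11312473 to 11313349) had 5.65 FPKM with prp-8, 68.5 with prp-6 and 20.0 with prp-31, against 4.77 with gfp. Its prp-31 fold, 1.86 on the log2 scale, was the largest among members with no listed 0. ZK1025.3 (chromosome I, 11462753 to 11463068) had 25.0, 381 and 61.2 FPKM with prp-8, prp-6 and prp-31 RNAi, against 31.4 with gfp. F15B9.8 (chromosome V, 12988532 to 12992186) had 30.1, 251 and 43.7 FPKM with the same clones, against 18.9 with gfp. All 3 were highest with prp-6, and ZK1025.3 alone of them was lower with prp-8 than with gfp. Over the 114 members with no listed 0, the log2 fold with prp-6 ran between 1.34 and 3.98. In the other genes of the list it reached 4.76.

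In a group of 24 members the prp-8 level was 2-fold or more under the control and the levels of the other clones were above it. In all 24 the order was prp-6, prp-31, gfp, prp-8. The most extreme was K01D12.9 (chromosome V, 12404519 to 12404644), with 0.839 FPKM with prp-8, 282 with prp-6 and 224 with prp-31, against 67.8 with gfp. Its prp-8 level was 37.4-fold below gfp on the FPKM + 1 scale, and its prp-6 and prp-31 levels were 4.12-fold and 3.28-fold above it.

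**Figure D3:**
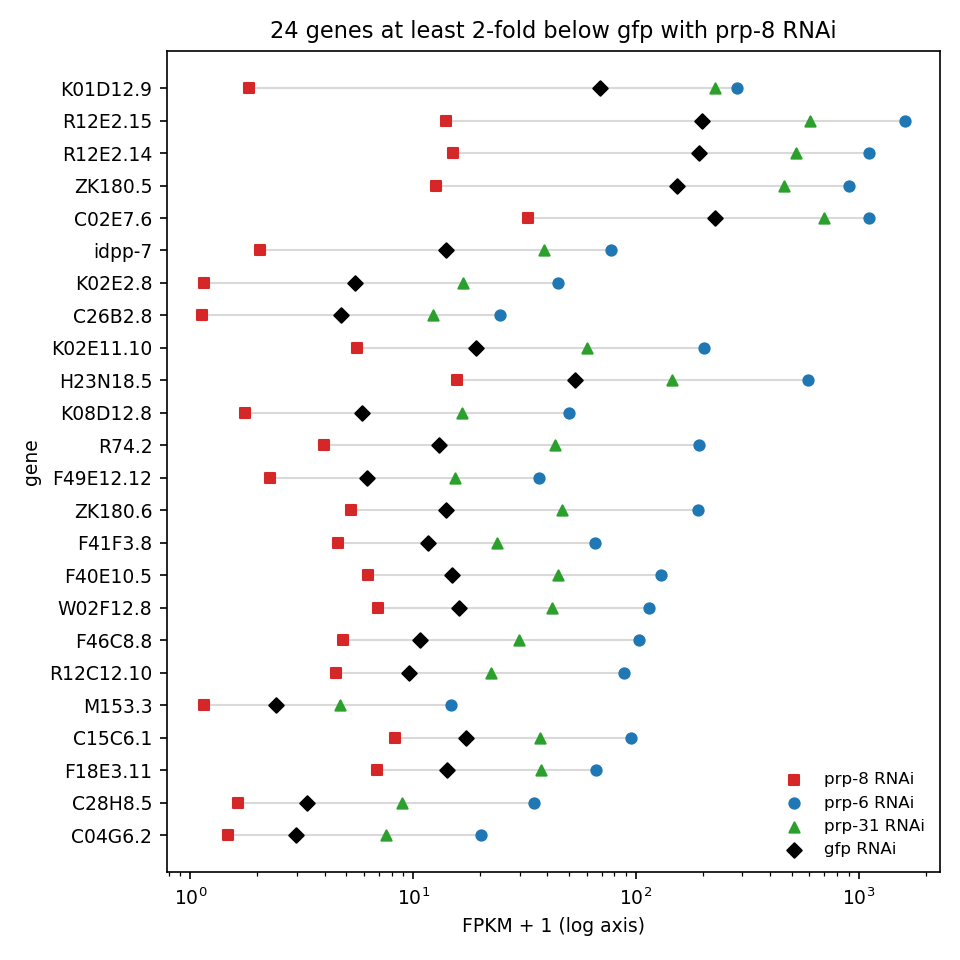
FPKM + 1 on a log axis of the 24 members whose prp-8 level was 2-fold or more under gfp, 1 point per N2 library, ordered by the prp-8 log2 fold. In each of the 24 genes the prp-8 point is lowest, followed by gfp, prp-31 and prp-6.

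Of these 24, 8 had a prp-8 level at least 4-fold under the control, and they include 4 of the 5 members with the highest prp-6 levels. R12E2.15 (chromosome I, 4149284 to 4149429) had 12.99 FPKM with prp-8, 1603 with prp-6 and 604 with prp-31, against 197 with gfp. R12E2.14 (chromosome I, 4149981 to 4150637) had 14.03, 1113 and 523 FPKM with these clones, against 190.4 with gfp. The values of this pair, neighbours on opposite strands, ran side by side in all 4 libraries. Whether their sequences are alike enough to share reads was not analysed here.

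ZK180.5 (chromosome IV, 4517116 to 4517169) had 11.7 FPKM with prp-8, 905 with prp-6 and 459.7 with prp-31, against 152 with gfp. C02E7.6 (chromosome V, 4919207 to 4919581) had 31.6, 1109 and 699 FPKM, against 225 with gfp. With prp-8, ZK180.5 was 12.03-fold and C02E7.6 6.94-fold below gfp. The others of the 8 were idpp-7 with 1.05 FPKM with prp-8 and 76.2 with prp-6, K02E2.8 with 0.152 and 43.5, and C26B2.8 with 0.128 and 23.5. With gfp, idpp-7 had 13.1 FPKM, K02E2.8 4.49 FPKM and C26B2.8 3.72 FPKM.

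Members further below gfp with prp-8 had higher levels in the control. The 8 members at least 4-fold lower had a median gfp level of 109.9 FPKM, the 16 members 2-fold to 4-fold lower 11.4 FPKM, and the 94 within 2-fold of gfp 3.16 FPKM. Low genes cannot show large drops on the FPKM + 1 scale, and the part of that limit was not tested. The median transcript in the Ensembl annotation was 576.5 bases long in the first of these groups, 911.5 in the second and 1232 in the third. In the 4 members at least 2-fold above gfp with prp-8 it was 567.5 bases. Those 4 include the non-coding Y65B4A.11 and F15B9.12, of 110 and 289 bases, beside C02F4.4 with 846 and Y71G12B.17 with 1088. The median number of exons of the longest transcript was 2.5, 3.5 and 6 in the groups of 8, 16 and 94 members. In the group of 4 it was 2.5. Whether length or exon number goes with the prp-8 fold was not tested. Over the groups of 8, 16 and 94 members the median log2 folds with prp-31 were 1.5999, 1.42 and 0.88, and those with prp-6 were 2.497, 3.10 and 2.51.

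At the other end, 4 members were at least 2-fold above gfp with prp-8 as well. C02F4.4 (chromosome IV, 10514922 to 10515283) had 17.3 FPKM with prp-8, 65.1 with prp-6 and 11.4 with prp-31, against 7.59 with gfp. Y71G12B.17 (chromosome I, 1667501 to 1669774) had 14.7, 49.6 and 10.5 FPKM, against 5.80 with gfp. In both, the prp-31 level was the lowest of the knockdowns. The other 2, Y65B4A.11 and F15B9.12, had gfp listed at 0, so their folds are finite only through the added 1 FPKM.

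T19B10.2 (chromosome V, 11221300 to 11222834) was an abundant member whose prp-8 level stayed above the control. It had 309.9 FPKM with prp-8, 1222 with prp-6 and 318 with prp-31, against 211 with gfp. The prp-8 and prp-31 levels lay close together, whereas the prp-6 level was 5.76-fold above gfp. Among the members with the lowest prp-31 folds were gtnt-54 (ZK381.2), lhfp-4 (F26D10.11), named after a family of tetraspan membrane proteins, and F56D3.1. The gene gtnt-54 had 0.957 FPKM with prp-8, 6.48 with prp-6 and 1.05 with prp-31, against 0.944 with gfp. F56D3.1 had 39.9, 117 and 32.8 FPKM, against 27.0 with gfp. In both, the prp-6 library stood apart from the other 3.

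Although the list gives them no public name, 22 of the 121 members found in the RefSeq gene table (assembly WBcel235) carry a symbol there. The bus genes are named for mutants that do not swell when infected by the bacterium Microbacterium nematophilum, which adheres to the cuticle. Among them bus-5 (F53B1.4, chromosome X, 2112978 to 2113084) had 14.3 FPKM with prp-8, 208 with prp-6 and 45.4 with prp-31, against 19.3 with gfp. For bus-24 (Y11D7A.9) the values were 11.3, 96.1 and 20.2 FPKM, against 10.03 with gfp. The third, bus-28 (M03F8.1), had 2.96, 43.1 and 9.85 FPKM, against 3.52 with gfp. With prp-6 they were 10.3-fold, 8.80-fold and 9.76-fold above gfp, while with prp-8 all 3 were within 1.5-fold of it.

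The gene bah-2 (F18F11.4, chromosome IV, 330860 to 334399), named for mutants on whose heads bacterial biofilm does not form, had 1.24 FPKM with prp-8, 27.1 with prp-6 and 3.61 with prp-31, against 1.55 with gfp. The chitinase family gene cht-2 (T13H5.3, chromosome II, 8520911 to 8523471) had 3.94, 25.2 and 6.50 FPKM, against 3.12 with gfp, and cht-6 (T05H4.7), of the same family, had 1.47, 20.0 and 6.52 FPKM, against 2.83 with gfp. For skpo-2 (C16C8.2, chromosome II, 3436402 to 3436512), of the peroxidase genes with a ShK domain, the levels were 3.56, 50.2 and 20.0 FPKM, against 7.99 with gfp. The prp-6 level was 11.02-fold above gfp for bah-2, 6.36-fold for cht-2, 5.48-fold for cht-6 and 5.70-fold for skpo-2. With prp-8, bah-2, cht-6 and skpo-2 were below gfp and cht-2 was above it.

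Of the other members with a symbol, cpg-19 (C06G1.2), of the genes named for chondroitin proteoglycans, had 1.92 FPKM with prp-8, 40.6 with prp-6 and 11.5 with prp-31, against 3.99 with gfp. The levels of srlf-4 (C32H11.5) were 11.7, 88.4 and 23.3 FPKM, against 9.002 with gfp. For dbd-9 (Y53F4B.25) they were 1.17, 15.8 and 2.69 FPKM, against 1.03 with gfp. All 3 were more than 8-fold above gfp with prp-6, and cpg-19 was 1.71-fold below it with prp-8.

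The 4 idpp genes among the members, idpp-3, idpp-4, idpp-7 and idpp-10, were between 5.16-fold and 6.57-fold above gfp with prp-6 and between 1.997-fold and 2.75-fold above it with prp-31. All 4 were below gfp with prp-8, and idpp-7 was the lowest, at 6.87-fold. The thymidylate kinase gene dtmk-1 (R53.2) had 25.8, 125 and 33.8 FPKM with prp-8, prp-6 and prp-31, against 24.7 with gfp. The UDP-glucuronosyltransferase family gene ugt-66 (C23G10.6) had 1.16, 6.88 and 4.67 FPKM, against 1.53 with gfp. The remaining symbols, lrpc-1, anp-1 and appg-1, were between 4.35-fold and 4.77-fold above gfp with prp-6 and below it with prp-8. The genes cht-6, idpp-7, idpp-10, dtmk-1, ugt-66, lrpc-1 and anp-1 were added after their values were seen, so that no member with a symbol is left out.

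Genes with a public name showed the same pattern in this list about as often as unnamed ones. Of the genes absent from the smg-1 higher list, 122 of 168 unnamed genes (72.6 percent) and 91 of 117 named genes (77.8 percent) had a log2 ratio of prp-8 to prp-6 of at most −1. Of the 124 genes in both higher lists, 4 did (3.23 percent), and over the whole list the share was 53.1 percent. The 91 named genes had median log2 folds of −0.25 with prp-8, 2.55 with prp-6 and 1.002 with prp-31. The difference between the genes in both lists and the rest rests on single libraries and was not tested.

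**Figure D4:**
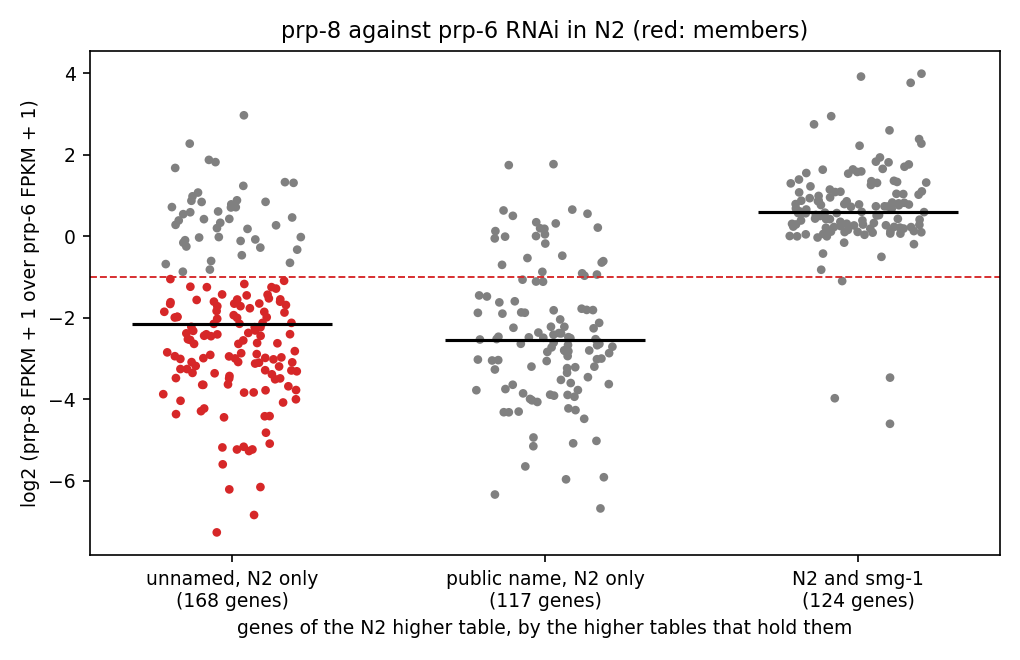
Log2 ratio of prp-8 FPKM + 1 to prp-6 FPKM + 1 in N2 for all genes of the higher list, split by whether the list gives a public name and whether the smg-1 higher list holds the gene too. Black bars are medians, at −2.15, −2.53 and 0.61 from left to right; the dashed line is the bound of −1 and members are red.

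Among gene families given by patterns in the list's public names, those of cuticle collagens and of hedgehog-related genes lay mostly at or below the bound. The families were chosen with earlier results of these data known. Of the collagen genes in the N2 higher list 22 of 24 had a ratio of at most −1, of the hedgehog-related and patched-related genes 16 of 16, of the abu and pqn genes 5 of 5, and of the other cuticle and moulting genes 9 of 10. The immune list had 5 of 12 and the detoxification list 1 of 9 at or below it, against 53.1 percent of the whole list. These counts leave out the N2 lower list, which holds 2 collagen, 2 other cuticle and moulting, 2 detoxification and 1 immune genes. The families also differ in membership of the smg-1 higher list, whose genes seldom reached the bound. That list holds 5 of the 12 immune and 4 of the 9 detoxification genes, against 2 of the 24 collagen genes. It holds 1 of the 16 hedgehog-related and patched-related genes and none of the other 2 families. Its part in these shares was not tested. By RefSeq symbol, 5 members belong to the cuticle and moulting pattern (bus-5, bus-24, bus-28, cht-2 and cht-6) and 1, ugt-66, to detoxification. The whole list was not counted by RefSeq symbol, so whether the members hold more of these genes than the list is not known.

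The named genes whose 3 folds lay nearest to the members' medians were lgc-27, grl-22, lrx-1, nas-15 and acs-20. Likeness was the Euclidean distance over the log2 folds of the 3 knockdowns, which was between 0.0762 and 0.215 for these genes. The ligand-gated ion channel family gene lgc-27 had 17.3 FPKM with prp-8, 113 with prp-6 and 36.3 with prp-31, against 17.4 with gfp. The ground-like, hedgehog-related gene grl-22 had 1.34, 15.4 and 4.37 FPKM, against 1.68 with gfp. The astacin protease family gene nas-15 had 6.77, 44.0 and 16.7 FPKM, against 7.28 with gfp.

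By the way they were chosen, none of the members is in the N2 lower list, which comes from the same comparison, or in the smg-1 higher list. None is in either glp-4 list, but the share of the whole N2 higher list found there is not given here. There are 3 in the list of 139 genes called lower in the smg-1 knockdowns, C38C6.3, H23N18.5 and ZC434.3, and the other members have no value in smg-1. Of the whole N2 higher list, 1.47 percent (6 genes) are in the smg-1 lower list. The tables of the strains were compared separately by the authors, so levels set across strains are on scales that may differ.

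C38C6.3 (chromosome II, 14633184 to 14634657) had 21.3 FPKM with prp-8, 29.4 with prp-6 and 11.01 with prp-31 in smg-1, against 37.5 with gfp. In N2 it had 5.61, 49.8 and 9.60 FPKM with these clones, against 3.77 with gfp. Each knockdown was thus below the control in smg-1 and above it in N2. H23N18.5 (chromosome V, 4912242 to 4912383) had 127, 277 and 123 FPKM in the smg-1 knockdowns, against 345 with gfp, and 14.7, 590 and 144 FPKM in N2, against 52.0 with gfp. ZC434.3 (chromosome I, 10335545 to 10335739) had 29.0, 34.8 and 17.9 FPKM in smg-1, against 54.3 with gfp, and 5.17, 44.0 and 9.57 FPKM in N2, against 6.24 with gfp. In these 2 genes the prp-8 level was below gfp in both strains.

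**Figure D5:**
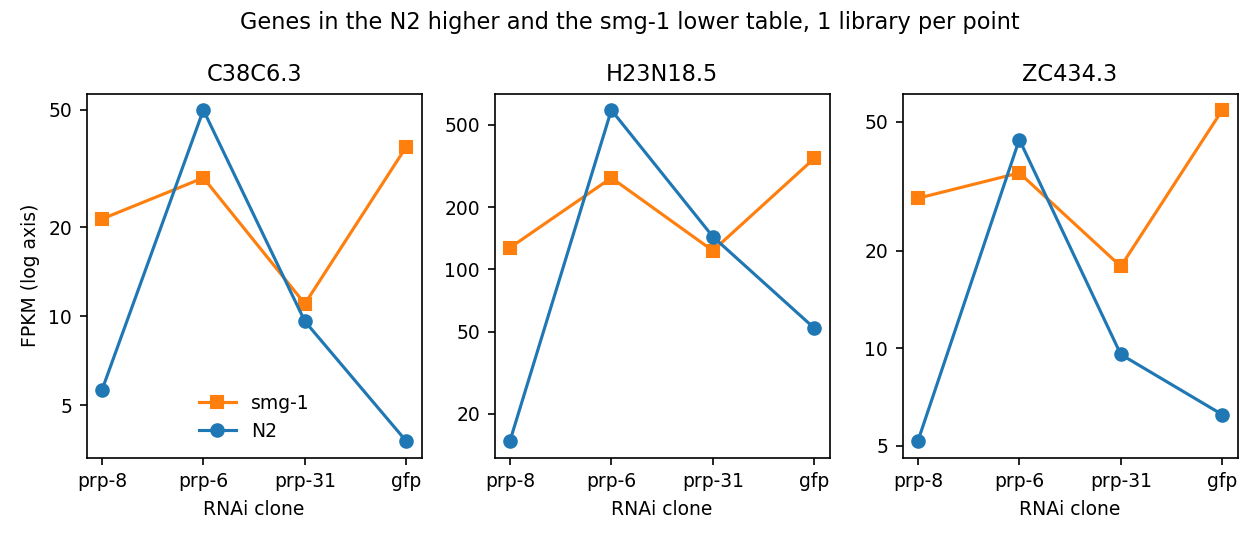
FPKM on a log axis of C38C6.3, H23N18.5 and ZC434.3 with the prp-8, prp-6, prp-31 and gfp clones in smg-1 (orange) and N2 (blue), 1 library per point. In smg-1 the gfp point is the highest of the 4, while in N2 the prp-6 point is.

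The control levels of these genes differed between the strains more than their prp-6 levels. With gfp RNAi, C38C6.3 was 8.07-fold, ZC434.3 7.64-fold and H23N18.5 6.53-fold higher in smg-1 than in N2 on the FPKM + 1 scale. Over the 147 genes with values in both larval strains the median log2 ratio of the gfp levels was 0.11, and 8 genes were at least 4-fold higher in smg-1. The 6 genes in both the N2 higher and the smg-1 lower list, these 3 with the hedgehog-related gene grl-5, the moulting gene mlt-10 and the lipase-related gene lips-9, were the 6 with the highest ratios. Being above gfp in one strain and below it in the other selects for such a difference, so this order is a description.

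The members were picked for a low prp-8 to prp-6 ratio in N2, and these 3 have smg-1 values because the smg-1 lower list holds them, so their ratios in the strains are given as a description. The log2 ratio was −0.44 in smg-1 against −2.94 in N2 for C38C6.3, −1.12 against −5.23 for H23N18.5, and −0.25 against −2.87 for ZC434.3. In the smg-1 lower list as a whole the median ratio was −0.21, and 12.2 percent of its 139 genes were at or below −1. In the authors' deposited table, the smg-1 q-values of these genes were 0.211, 0.0949 and 0.0949.

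The members are spread over all 6 chromosomes. As the deposited list places them, there are 14 on chromosome I, 23 on II, 10 on III, 22 on IV, 32 on V and 21 on X. Chromosome V holds 26.2 percent and X 17.2 percent of the members, against 26.4 and 14.9 percent of the whole list. Of the 121 with a RefSeq entry, 1 is a small nucleolar RNA (Y65B4A.11), 1 another non-coding RNA (F15B9.12), and the others are protein-coding.

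Some members lie next to each other in the genome. In RefSeq order 4 pairs of members are neighbouring protein-coding genes: R12E2.15 with R12E2.14, ZK180.5 with ZK180.6, idpp-4 with appg-1, and R09E10.13 with R09E10.5. ZK180.6 (chromosome IV, 4524862 to 4524937) had 4.24 FPKM with prp-8, 189 with prp-6 and 45.7 with prp-31, against 12.97 with gfp, and like ZK180.5 was below gfp with prp-8. For idpp-4 the values were 0.553, 14.9 and 4.90 FPKM, against 1.41 with gfp, and for appg-1 1.73, 14.7 and 6.77 FPKM, against 2.61 with gfp. R09E10.13 had 17.4, 98.98 and 31.7 FPKM, against 15.7 with gfp, while its neighbour R09E10.5 had 0.507, 3.12 and 0.904 FPKM, against 0.391 with gfp. Of the members, 15 had a protein-coding neighbour of this kind somewhere in the list, which 11.5 percent of the list's genes had. That count leaves out the non-coding F15B9.12 (chromosome V, 12988154 to 12988442), whose deposited interval ends shortly before that of F15B9.8, also a member.

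Taken as 1 group, the members differed little in exon number from the rest of the list and from all protein-coding genes. The median number of exons of the longest annotated transcript was 5 in the 121 members found in Ensembl release 115, 5 in the rest of the list and 5 in the 19985 protein-coding genes. Of the members, 21 had no more than 2 exons (17.4 percent), against 13.4 percent of the rest of the list and 13.9 percent of all protein-coding genes. The 91 named genes under the same bound and absent from the smg-1 higher list had a median of 7 exons. Of those named genes, 6.59 percent had no more than 2 exons. At the other end F59F5.7 had 22 exons. It was named for that number after the values were seen. The most abundant member with prp-6, R12E2.15, has 2 exons. F59F5.7 had 0.879 FPKM with prp-8, 8.38 with prp-6 and 2.04 with prp-31, against 0.805 with gfp.

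Several limits of single values touch the members. In 8 members gfp was listed at 0, in the single library and in the authors' pooled value alike. Of the whole list, 9.78 percent had a pooled gfp value of 0 and 7.58 percent a 0 in any library. The folds of these 8 members are finite only through the added 1 FPKM: Y65B4A.11, F15B9.12, K04G2.12, C46F4.3, cTel3X.1, F47B7.5, F25H5.8 and T05B4.13. An exact 0 can be a failed estimate. The small nucleolar RNA Y65B4A.11 was listed at 248 FPKM with prp-8, 591 with prp-6 and 274 with prp-31, against 0 with gfp. In the Ensembl annotation it overlaps an exon of eif-4A3 on the same strand, and the RNA was selected for poly(A). That host gene, listed as Y65B4A.6, is in both the N2 and the smg-1 higher list and is no member. In N2 it had 113 FPKM with prp-8, 78.6 with prp-6 and 48.4 with prp-31, against 28.1 with gfp, and was highest with prp-8. Its part in the values of Y65B4A.11 was not tested. F15B9.12 was listed at 1.28 FPKM with prp-8, 12.98 with prp-6 and 0 with prp-31, against 0 with gfp. The other 6 had between 1.78 and 6.03 FPKM with prp-6 and at most 0.637 FPKM with prp-8.

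Of the 121 members in the annotation, 32 overlap a protein-coding gene on the other strand. The share among other genes was not counted, so whether this is usual is not known. Whether the libraries kept the strand is not stated, and without it reads of such partners cannot be told apart. Of the members named above these include bus-5, bus-24, bus-28, cht-6, skpo-2, dbd-9, dtmk-1, lrpc-1, anp-1, C38C6.3, K02E2.8, T24F1.7, T19B10.2, Y71G12B.17 and C46F4.3. The deposited intervals overlap the gene of the same name in WBcel235 for all 121. For 56 of them, nearly all on the minus strand, they cover less than 50 percent of it.

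In the authors' deposited table, 10 members had a q-value below 0.05, against 8.31 percent of the list, and the largest q-value of a member was 0.303. Those 10 were C02F4.4, C38C6.3, C46F4.3, D2024.4, F15B9.8, F30A10.2, F40E10.5, R74.2, dbd-9 and ZK180.6. The authors' deposited log2 fold of the pooled knockdowns over gfp was between 1.17 and 3.18 in the 114 members with a finite value, with a median of 1.84. That comparison pools the 3 clones, among which the members differed most.

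Near the bound of the rule the members ended with lhfp-4, T05B4.13 and ZC84.1. The log2 ratio of prp-8 to prp-6 was −1.05 for lhfp-4, which had 2.59 FPKM with prp-8, 6.43 with prp-6 and 1.44 with prp-31, against 1.26 with gfp. For T05B4.13 and ZC84.1 it was −1.09 and −1.17. The nearest genes outside were B0334.6, F47B10.9 and F54B8.1, with ratios of −0.87, −0.82 and −0.68. F47B10.9 had 10.7 FPKM with prp-8, 19.6 with prp-6 and 8.21 with prp-31, against 5.24 with gfp. Between lhfp-4 and B0334.6 no gene that met the rest of the rule had a ratio.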

How the data were processed

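Poly(A)-selected RNA was read as pairs of 73 bp, per the labels' protocols. Cufflinks and Cuffdiff are named in the submitters' processing notes. Versions, aligner, genome build and annotation were not given in the sources consulted. The authors deposited selected genes only, as an FPKM per library and pooled FPKM values. Per the file headers, their comparison columns are a log2 fold, which is 33.33 where the pooled gfp value is 0, with its P-value and q-value. The test statistic, a score that the authors deposited in 5 of the 6 tables, was not used.

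The 122 members and all lists were chosen with earlier results of these data known. Folds were computed as log2 of FPKM + 1 over gfp FPKM + 1. Members were named by the largest or smallest folds and levels, a RefSeq symbol, a second table, neighbouring genes or a listed 0. Each group is 1 library, so nothing was tested and the spread between cultures is unknown. Names, exon counts, strands and neighbours came from RefSeq and Ensembl release 115 (WBcel235), in which 121 members were found. Their coordinates were not printed. Calculations used Python (3.11.15) with pandas (2.3.3) and numpy (2.4.6), and plots matplotlib (3.10.9). The member search and fold medians were tested on simulated data.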

Additional observations from a re-analysis of the deposited data

Results flagged for a closer look

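C38C6.3 moved in opposite directions in the larval strains: its log2 fold with prp-6 RNAi was −0.34 in smg-1 against 3.41 in N2, and each of the 3 knockdowns was below gfp in smg-1 and above gfp in N2. The difference was not tested, since each group is 1 library. The gene comes from the N2 higher list and has smg-1 values through the smg-1 lower list, which selects for opposite signs. The prp-6 log2 fold also changed sign in the other members with smg-1 values. It was −0.31 in smg-1 against 3.48 in N2 for H23N18.5, and −0.63 against 2.64 for ZC434.3. The gfp level of C38C6.3, 37.5 FPKM in smg-1 and 3.77 FPKM in N2, is the control of all 3 knockdowns of a strain, and its part in the difference was not tested.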

How the results depend on the processing

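Of 40 alternative values, 39 kept their sign and moved a count, or a median fold before taking log2, by less than 1.5 times, and none changed sign. The exception was the number of members at least 2-fold above gfp with prp-31 RNAi, which was 25 with a pseudocount of 5 FPKM in place of 57 with 1 FPKM. A larger pseudocount lowers the folds of low genes by construction. The number of members was between 104 and 127 over other pseudocounts, bounds of −1.5 and −0.5, and filters on low values. The median log2 fold with prp-8 RNAi was −0.18 in the members with no listed 0, against −0.01 in all. Scaling the knockdowns by the median offset of the pooled columns, −0.09 on the log2 scale, left 66 members below gfp with prp-8, against 61. The alternatives on whether prp-31 exceeded prp-8 were chosen after seeing the data. Leaving out a library was not possible with 1 per group. No paired analysis was possible because each group has 1 library and the labels carry no replicate numbers. The planned results on protein starts and promoter motifs were not run, because no sequences were used here. Depth is unknown, so how precise the low FPKM values are cannot be stated.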
